A study of Mus musculus with 14 samples.

Results

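The enzymes that turn acetyl groups into fatty acids and fatty acids into triglyceride were followed in mouse liver under endoplasmic reticulum stress through 10 genes. These were Acly, Acaca, Acacb, Fasn, Scd1, Elovl6, Gpam, Agpat2, Dgat1 and Dgat2, chosen by name from the pathway, with earlier results of these data known. All 10 were among the 12085 genes tested. Each gene was read from its brightest probe set, the group of short probes on the array that reports one transcript, and its other probe sets served as a check. The series holds 14 arrays of total liver RNA in 4 groups. The knock-out mice of the study are called lsPERK, and their livers came from 4 samples taken 6 h after 1 mg/kg tunicamycin and from 3 control samples with 0.3% DMSO. Livers of wild-type (WT) mice came from 4 samples taken 6 h after the same dose of tunicamycin and from 3 control samples with 0.3% DMSO. For the DMSO samples no time is labelled. Neither strain, sex, age and feeding state nor the driver of the lsPERK deletion is given in the sources used here. The labels number the replicates but do not say that each came from its own animal, so the p-values measure the spread between these samples.

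Tunicamycin blocks N-linked glycosylation, so that unfolded proteins build up in the endoplasmic reticulum. PERK, the product of Eif2ak3, is one of the sensors of that stress and slows translation by phosphorylating the initiation factor eIF2α. Liver makes fatty acids from citrate: Acly splits it into acetyl-CoA, acetyl-CoA carboxylases (Acaca in the cytosol, Acacb at the mitochondrial surface) make malonyl-CoA, and Fasn builds palmitate from both. Elovl6 lengthens palmitate and Scd1 puts a double bond into saturated chains. Gpam adds the first acyl chain to glycerol 3-phosphate, Agpat2 adds the next to give phosphatidic acid, and Dgat1 and Dgat2 attach the last chain to diacylglycerol.

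The arrays carried liver RNA: the 6 hepatocyte markers (albumin and others) summed to intensities of 111259 to 117341 in lsPERK tunicamycin, 114185 to 119976 in lsPERK control, 110753 to 116912 in WT tunicamycin and 117901 to 118518 in WT control livers. Eif2ak3 read 239 to 316 in lsPERK tunicamycin livers, against 1725 to 2420 in WT tunicamycin livers (log2 difference -2.75, limma adjusted p = 1.47e-07). Under control conditions it read 127 to 157 in lsPERK livers, against 240.1 to 443 in WT livers (log2 -1.27, adjusted p = 0.309). Whether this probe set lies in the deleted stretch is not given. Xist, a noncoding RNA made from the inactive X chromosome, split the arrays into 6 high (7878 to 9297) and 8 low (23.4 to 61.2). High arrays made up 2 of 4 lsPERK tunicamycin, 2 of 3 lsPERK control, 1 of 4 WT tunicamycin and 1 of 3 WT control samples. The log2 ratio of 3′ to 5′ signal of the β-actin control probe sets, a measure of how intact the labelled RNA was, ran from 0.59 to 0.78 in lsPERK tunicamycin, 0.58 to 1.04 in lsPERK control, 0.66 to 1.21 in WT tunicamycin and 1.00 to 1.26 in WT control samples. With that ratio as a covariate each member kept its call in all 5 comparisons.

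In lsPERK liver 2 of the 10 enzymes were lower under tunicamycin, Dgat2 and Agpat2, and none was higher. In WT liver 5 of 10 were lower and none was higher. These were the carboxylases Acacb and Acaca, the synthase Fasn, and the acyltransferases Gpam and Agpat2. Acly, Scd1, Elovl6, Dgat1 and Dgat2 did not pass the test in WT liver. Agpat2 was the one enzyme called in both genotypes.

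**Figure D1:**
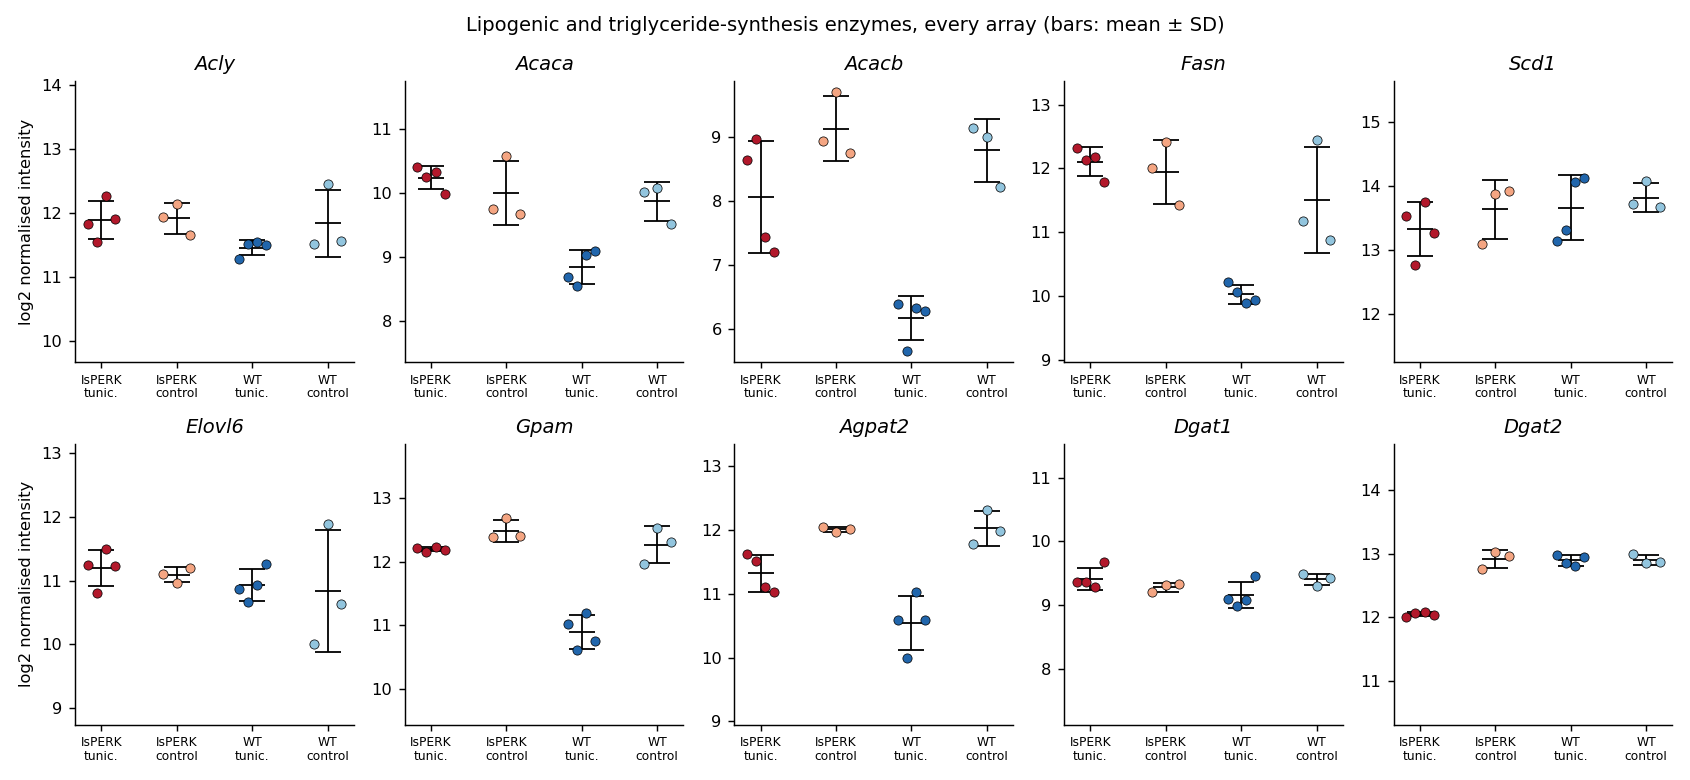
Log2 normalised intensity of each enzyme on every array (points) for lsPERK tunicamycin, lsPERK control, WT tunicamycin and WT control livers, with mean ± SD as bars. Each panel has its own vertical axis spanning the same number of log2 units. WT tunicamycin livers sit below every other sample for Acaca, Acacb, Fasn, Gpam and Agpat2, and lsPERK tunicamycin livers sit below every other sample for Dgat2.

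These counts stand against a broad response. A gene was called at a limma adjusted p under 0.05, and by that rule the lsPERK response held calls for 15.7% of all genes, 8.42% higher and 7.27% lower. In the WT response 46.7% were called, 20.7% higher and 26% lower. Counted in either direction, the 2 of 10 members called in lsPERK liver and the 5 of 10 in WT liver are close to 15.7% and 46.7%. The number called is therefore no result about these enzymes. All of these calls were lower, where 7.27% and 26% of all genes were lower, and this lean was not tested. The median log2 change over the 10 members was -0.16 in lsPERK and -0.71 in WT liver, beside -0.02 and -0.13 over all genes. On the values as deposited, before the arrays were brought to one distribution, the all-gene median of the WT change was 0.30, a shift of scale that touches each WT change given here. On those values 1 enzyme, Dgat2, was called lower in lsPERK liver, and 3 were called lower in WT liver, Acacb, Gpam and Agpat2. The calls over all genes moved too. In the WT response 4337 genes were called as deposited, 83.7% of them higher, against 5642 and 44.2% after normalisation. In the lsPERK response 695 were called, 58.3% of them higher, against 1897 and 53.7%. The smaller counts of enzymes are therefore no measure of a weaker response relative to all genes. A fold change in whole liver does not tell fewer cells of a type from less RNA per cell.

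Between the genotypes under tunicamycin, 5 enzymes were higher and 1 was lower in lsPERK liver, where 35.3% of all genes were called, 18.5% higher and 16.8% lower. The 5 higher ones were those that were lower in the WT response, and the lower one was Dgat2. Both comparisons share the WT tunicamycin arrays. The median log2 difference was 0.60 over the members and 0.05 over all genes. Without tunicamycin no enzyme was called between lsPERK and WT control liver, 0 of 10 beside 0% of all genes by limma. There were 512 genes at an unadjusted p under 0.05, and the smallest limma adjusted p was 0.309. Eif2ak3 itself was not called here, at a log2 difference of -1.27, so missing calls do not show that the enzymes were alike. The limits of the members' confidence intervals ran from -0.84 for Scd1 to 1.27 for Acacb. The members' control differences ran from -0.19 for Scd1 to 0.44 for Fasn on the log2 scale, and in 0 of 10 did the lsPERK control arrays lie wholly above or below the WT control arrays, as they did for 7.39% of all genes.

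**Figure D2:**
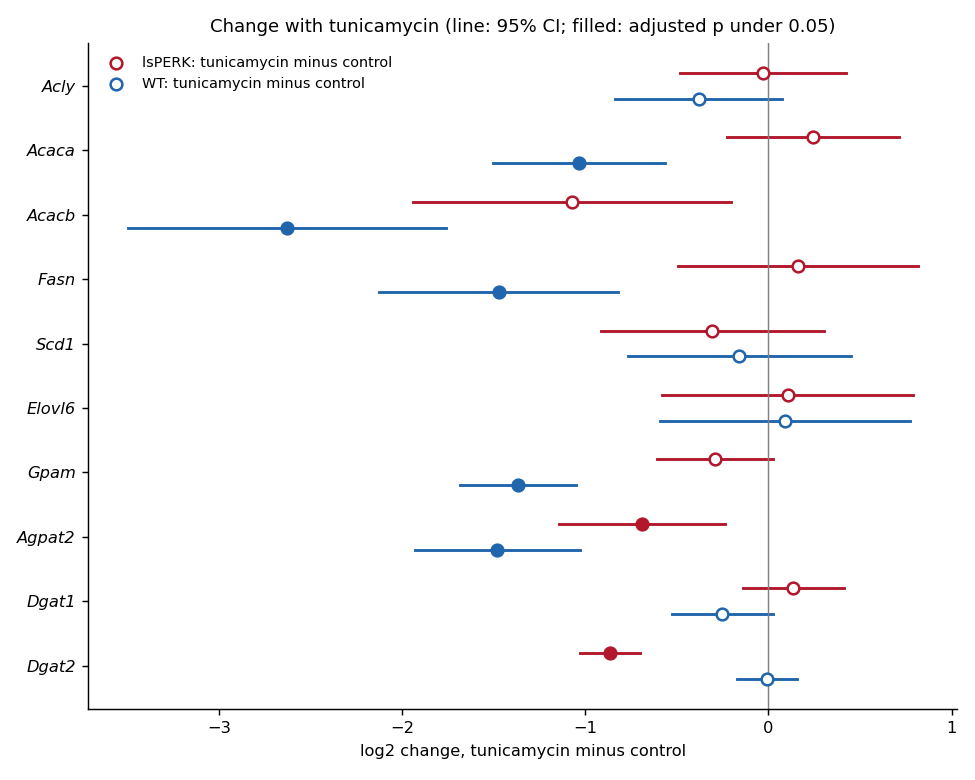
Log2 change under tunicamycin (tunicamycin minus control) of each enzyme in lsPERK and in WT liver, with 95% confidence intervals as lines and filled symbols for a limma adjusted p under 0.05. The filled lsPERK symbols are Dgat2 at -0.87 and Agpat2 at -0.69, and the filled WT symbols run from -2.63 for Acacb to -1.04 for Acaca.

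The test of the difference between both responses (lsPERK change minus WT change) called 4 enzymes, 3 higher and 1 lower, where 19.9% of all genes were called, 10.2% higher and 9.67% lower. Fasn, Acaca and Gpam responded higher in lsPERK liver and Dgat2 responded lower. Acacb and Agpat2, also lower in WT liver, missed the threshold for the difference. These calls rest on the scaling of the arrays. On the values as deposited Dgat2 alone was called, the all-gene median of this difference was -0.42, and 6.79% of the genes called were higher. Acaca, Fasn and Gpam were not, with the values given for each below. The 4 remaining enzymes (Acly, Scd1, Elovl6 and Dgat1) were called in none of the 5 comparisons.

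Promoter windows of 300 bases, from 250 before to 50 after the annotated start, were found for 7 of the 10 genes in RefSeq (build GRCm38.p6). The 4 below belong to enzymes that were lower together in WT liver. Capitals mark matches, on either strand, to the motifs searched: CCAAT (the NF-Y box), GGGCGG (the GC box) and TGATGNAA (a C/EBP-ATF composite element). TCACNCCAC (an SREBP box) and CACGTG (an E-box) were searched too, and neither was present in any of the 8 windows of the 7 genes.
Fasn, chr11:120824498-120824797, minus strand: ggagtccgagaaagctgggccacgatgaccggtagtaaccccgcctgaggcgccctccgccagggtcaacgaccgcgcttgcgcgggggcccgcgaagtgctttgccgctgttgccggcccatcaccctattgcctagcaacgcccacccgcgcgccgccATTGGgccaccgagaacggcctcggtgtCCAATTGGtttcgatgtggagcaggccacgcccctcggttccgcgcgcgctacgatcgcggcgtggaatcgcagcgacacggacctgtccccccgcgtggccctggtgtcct
Gpam, chr19:55127189-55127488, minus strand, the more upstream of its annotated starts: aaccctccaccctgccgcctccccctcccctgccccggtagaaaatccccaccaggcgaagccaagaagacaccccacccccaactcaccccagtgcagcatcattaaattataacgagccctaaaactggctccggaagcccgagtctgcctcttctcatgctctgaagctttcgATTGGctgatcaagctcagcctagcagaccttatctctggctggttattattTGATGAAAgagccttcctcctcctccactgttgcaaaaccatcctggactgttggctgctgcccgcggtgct
Acacb, chr5:114165268-114165567, plus strand: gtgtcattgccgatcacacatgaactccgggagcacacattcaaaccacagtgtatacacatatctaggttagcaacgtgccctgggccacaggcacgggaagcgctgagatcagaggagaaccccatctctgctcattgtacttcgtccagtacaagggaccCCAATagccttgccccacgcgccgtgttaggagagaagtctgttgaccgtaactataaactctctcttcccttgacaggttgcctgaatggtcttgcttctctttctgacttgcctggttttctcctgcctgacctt
Agpat2, chr2:26604368-26604667, minus strand: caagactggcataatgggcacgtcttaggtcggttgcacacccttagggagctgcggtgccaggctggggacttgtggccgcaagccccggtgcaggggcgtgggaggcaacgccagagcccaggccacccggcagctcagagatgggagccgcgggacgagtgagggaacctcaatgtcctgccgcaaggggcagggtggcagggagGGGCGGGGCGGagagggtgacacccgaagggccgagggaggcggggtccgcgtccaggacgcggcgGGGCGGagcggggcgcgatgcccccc

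CCAAT was present in 4 of the 7 genes, Acly, Acacb, Fasn and Gpam, and in 37.4% of 32851 promoter windows of this length. Fasn held 3 matches, from -90 to -86, from -62 to -58 and from -59 to -55 relative to the start, of which the last 2 overlap and lie on opposite strands. The Gpam match ran from -74 to -70 and the Acacb match from -87 to -83. GGGCGG was present in 3 of the 7 genes, Acly, Gpam (in its other window) and Agpat2, and in 35.7% of all windows. Agpat2 held it from -42 to -37, overlapping at 1 base with -37 to -32, and again from 25 to 30. TGATGNAA was present in Gpam alone among the 7, from -22 to -15, and in 3.97% of all windows. TCACNCCAC occurred in 1.24% and CACGTG in 7.15% of all windows. The window of Acaca held no match to any of the 5 motifs. A match is a stretch of letters and not a shown binding site, and its absence says only that these letters are not in this window.

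Acly, the citrate-splitting enzyme that feeds the pathway, passed no test. Its normalised intensity was 3636, 3005, 4939 and 3824 in lsPERK tunicamycin livers, against 3947, 4537 and 3243 in lsPERK control livers. WT tunicamycin livers read 2500, 2914, 2992 and 2885, against 2925, 5596 and 3014 in WT control livers. The groups overlapped within each genotype, and WT control replicate 2 stood well above its fellows. The log2 change was -0.03 in lsPERK (95% confidence interval -0.49 to 0.42) and -0.38 in WT liver (-0.84 to 0.07, limma adjusted p = 0.158). Every lsPERK tunicamycin sample lay above every WT tunicamycin sample, with a log2 difference of 0.43 (adjusted p = 0.108). Without WT control replicate 2 that difference had the same size and an adjusted p of 0.0298, and the WT change was -0.08.

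The cytosolic carboxylase Acaca was not called in lsPERK liver and was lower in WT liver. It read 1367, 1221, 1286 and 1015 in lsPERK tunicamycin livers, against 861, 1527 and 819.9 in lsPERK controls, which span the treated values. It read 414, 372, 522 and 546 in WT tunicamycin livers, against 1034, 1089 and 735 in WT controls, and no treated sample reached the lowest control. The lsPERK change of Acaca was 0.24 (-0.23 to 0.72, limma adjusted p = 0.517), while in WT liver it fell to 48.8% of the control level (log2 -1.04 ± 0.22 SE, adjusted p = 0.00145). Under tunicamycin it was 2.65-fold higher in lsPERK than in WT liver (log2 1.41 ± 0.20, adjusted p = 0.000113). The responses differed by 1.28 ± 0.31 (adjusted p = 0.0107). With the values as deposited the WT change of Acaca was -0.47 (adjusted p = 0.239) and the difference of responses 0.73 (adjusted p = 0.262).

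Acacb, the mitochondrial carboxylase whose malonyl-CoA restrains fatty acid import into mitochondria, had the largest WT change of the 10. It read 401, 503, 174 and 147 in lsPERK tunicamycin livers, against 493, 839 and 433 in lsPERK controls. It read 84.4, 50.4, 80.3 and 78.2 in WT tunicamycin livers, against 571, 515 and 299.7 in WT controls. These treated WT values were not far above 41.5, the level of the filter on low values. Both the WT fold and the fold between treated genotypes rest on them. The lsPERK groups overlapped, whereas the WT groups were far apart. In lsPERK liver the change was -1.07 (-1.94 to -0.20, limma adjusted p = 0.0942). In WT liver Acacb fell to 16.2% of the control level (log2 -2.63 ± 0.40 SE, adjusted p = 0.000119), and the difference of responses was 1.56 ± 0.57 (adjusted p = 0.0725). Under tunicamycin Acacb was 3.73-fold higher in lsPERK than in WT liver (adjusted p = 0.00128).

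The lsPERK tunicamycin samples of Acacb formed a high and a low pair, and the pairs followed the Xist signal: 401 to 503 on the 2 Xist-high arrays and 147 to 174 on the 2 Xist-low arrays. Agpat2 split the same way, with 2912 to 3168 on the Xist-high and 2083 to 2211 on the Xist-low arrays. Acly split the other way, with 3005 to 3636 against 3824 to 4939. For Acaca, Fasn, Scd1, Elovl6, Gpam, Dgat1 and Dgat2 the Xist-high and Xist-low pairs overlapped. How many of all genes part these pairs was not counted, so the split is no result about these enzymes. The highest Acacb value was 3.41 times the lowest in lsPERK tunicamycin livers, against 1.67 times in WT tunicamycin livers. This grouping of the samples was seen in the data, and its part in the result was not tested. Without lsPERK tunicamycin replicate 2 the lsPERK change of Acacb was -1.37 (adjusted p = 0.0339). The difference of responses passed the threshold with Xist status as a covariate (1.61, adjusted p = 0.0314) and without lsPERK tunicamycin replicate 4 (1.85, adjusted p = 0.0313). The Xist term itself did not pass for Acacb (0.56 higher on Xist-high arrays, adjusted p = 0.203) or for any other member.

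Fasn, the synthase that makes palmitate, showed the widest gap between the treated genotypes. It read 5109, 4508, 4658 and 3536 in lsPERK tunicamycin livers, against 4119, 5441 and 2746 in lsPERK controls, so treated values lay inside the control range. It read 1192, 1075, 948 and 985 in WT tunicamycin livers, against 2316, 5601 and 1891 in WT controls, and the highest treated sample was below the lowest control. The lsPERK change of Fasn was 0.16 (-0.49 to 0.81, limma adjusted p = 0.792), and in WT liver it fell to 36.0% of the control level (log2 -1.47 ± 0.30 SE, adjusted p = 0.00123). Under tunicamycin it was 4.22-fold higher in lsPERK than in WT liver (log2 2.08 ± 0.28, adjusted p = 7.01e-05). The responses differed by 1.63 ± 0.43 (adjusted p = 0.0166). WT control replicate 2 was well above its fellows here too: without it the WT change was -1.001 and the difference of responses 1.16, and both remained called. With the values as deposited the WT change was -0.98 (adjusted p = 0.0644) and the difference of responses 1.16 (adjusted p = 0.18).

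Scd1, the main liver desaturase for saturated acyl chains, passed no test. Its intensity was 11808, 6965, 13734 and 9883 in lsPERK tunicamycin livers, against 8748, 15062 and 15594 in lsPERK controls. It was 9013, 10143, 17219 and 17887 in WT tunicamycin livers, against 13439, 17256 and 13041 in WT controls. The treated values spread around the controls in both genotypes. The log2 change was -0.31 in lsPERK (-0.92 to 0.30) and -0.16 in WT liver (-0.77 to 0.45), intervals that leave room for a change of almost 1 log2 unit downward in lsPERK liver. The log2 change of its other probe set was -0.91 in lsPERK liver (adjusted p = 0.365).

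The elongase Elovl6 also passed no test. It read 2427, 1793, 2893 and 2395 in lsPERK tunicamycin livers, against 2199, 2001 and 2354 in lsPERK controls. It read 1869, 1617, 1954 and 2457 in WT tunicamycin livers, against 1027, 3780.2 and 1592 in WT controls. The WT controls alone spanned 3.68-fold, the widest spread within a group of any of these enzymes, and enclosed every treated WT sample. The log2 change was 0.10 in lsPERK (-0.58 to 0.79) and 0.09 in WT liver (-0.59 to 0.77). Without WT control replicate 2 the WT change was 0.61 (limma adjusted p = 0.0326).

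The replicate that stood high in Acly, Fasn and Elovl6 was also the highest in most of the list. WT control replicate 2 was the highest of its 3 samples in 7 of the 10 enzymes and the lowest in 2, Dgat1 and Dgat2. In lsPERK controls replicate 2 was highest in 6 of 10, and in WT tunicamycin livers replicate 2 was lowest in 6 of 10. How often these arrays ranked so over all genes was not counted, so these ranks are no result about the enzymes. Fasn, Elovl6, Scd1 and Acacb varied more within groups than most genes, with residual SDs of 0.46, 0.48, 0.43 and 0.60 on the log2 scale, at percentiles 80.5, 82, 78.3 and 88 of all genes tested. Dgat2 at percentile 3.43 and Dgat1 at percentile 20.3 varied less than most.

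Gpam, the mitochondrial acyltransferase that starts glycerolipid synthesis, had the smallest adjusted p of the enzymes lower in WT liver. It read 4759, 4551, 4778 and 4658 in lsPERK tunicamycin livers, against 5329.7, 6586 and 5383 in lsPERK controls. It read 2089, 1559.8, 2351 and 1732 in WT tunicamycin livers, against 3986, 5893 and 5087 in WT controls. The treated samples lay below all controls in both genotypes, by a narrow margin in lsPERK and a wide one in WT liver. In lsPERK liver the treated level of Gpam was 81.7% of control (log2 -0.29, -0.61 to 0.02, limma adjusted p = 0.212). In WT liver it fell to 38.7% of control (log2 -1.37 ± 0.15 SE, adjusted p = 5.06e-06). Under tunicamycin Gpam was 2.46-fold higher in lsPERK than in WT liver (adjusted p = 8.5e-06), and the responses differed by 1.08 ± 0.21 (adjusted p = 0.00299). The log2 change of its second probe set was -0.30 in lsPERK and -1.50 in WT liver (adjusted p = 0.000619), with a difference of responses of 1.21 (adjusted p = 0.0535). With the values as deposited the brightest probe set gave a difference of responses of 0.67 (adjusted p = 0.118).

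Agpat2, which makes phosphatidic acid, was lower under tunicamycin in both genotypes. It read 3168, 2912, 2211 and 2083 in lsPERK tunicamycin livers, against 4239.7, 3992 and 4129.5 in lsPERK controls. It read 1531, 1013, 2074 and 1541 in WT tunicamycin livers, against 3496, 5089.6 and 4064 in WT controls. Treated and control samples were apart in both, and the 4 treated lsPERK samples all lay above the 4 treated WT samples, though the nearest pair nearly touched. Agpat2 fell to 62.0% of control in lsPERK (log2 -0.69 ± 0.21 SE, limma adjusted p = 0.039) and to 35.8% of control in WT liver (log2 -1.48 ± 0.21, adjusted p = 5.95e-05). Under tunicamycin it was 1.71-fold higher in lsPERK than in WT liver (adjusted p = 0.0066), and the difference of responses was 0.79 ± 0.30 (adjusted p = 0.0784). The lsPERK call sits near the threshold and was lost in 14 of 29 other settings, 8 of them with 1 array left out, with log2 changes from -0.94 to -0.44 over all 29. With the values as deposited the difference between the treated genotypes was 0.56 (adjusted p = 0.0729). Over the 29 other settings that difference ran from 0.34, on Xist-low arrays alone, to 1.58. Without WT tunicamycin replicate 3 the difference of responses passed the threshold (0.95, adjusted p = 0.0276).

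Dgat1, one of the 2 enzymes that complete triglyceride, varied little and was not called. It read 656, 659, 621 and 815 in lsPERK tunicamycin livers, against 590.2, 635 and 642 in lsPERK controls. It read 546, 508, 541 and 699.6 in WT tunicamycin livers, against 716, 631 and 688 in WT controls. One treated WT sample, replicate 4, lay inside the control range and the other 3 lay below it. The log2 change was 0.14 in lsPERK (-0.14 to 0.41) and -0.25 in WT liver (-0.52 to 0.02, limma adjusted p = 0.124). Without WT tunicamycin replicate 4 the WT change was -0.35 (adjusted p = 0.0281) and the difference between lsPERK and WT under tunicamycin 0.36 (adjusted p = 0.0226).

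Dgat2, the endoplasmic reticulum enzyme that also completes triglyceride, showed the reverse pattern: it was lower in lsPERK liver and not called in WT liver. It read 4129.5, 4314, 4319 and 4189 in lsPERK tunicamycin livers, against 6892, 8358 and 8002 in lsPERK controls. It read 8105, 7363, 7139.98 and 7871 in WT tunicamycin livers, against 8159, 7359.6 and 7459.8 in WT controls. All 4 treated lsPERK samples lay below all 10 other samples, and the 2 WT groups overlapped throughout. Dgat2 fell to 54.9% of control in lsPERK liver (log2 -0.87 ± 0.08 SE, limma adjusted p = 4.79e-06), and the WT change was -0.01 (-0.17 to 0.15, adjusted p = 0.941). Between the treated genotypes the log2 difference was -0.84 ± 0.07, with lsPERK lower (adjusted p = 1.32e-06). The responses differed by -0.86 ± 0.11 (adjusted p = 0.000164).

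The second Dgat2 probe set gave the same calls. Its log2 change was -1.06 in lsPERK (limma adjusted p = 3.1e-06, among 21808 probe sets) and -0.11 in WT liver, with a difference of responses of -0.95 (adjusted p = 0.000255). Dgat2 also had the largest moderated F over the 4 groups among the 10 enzymes. The 5 other genes whose centred log2 profile over the 14 arrays lay nearest to it were Stard5, a sterol-binding protein of the START family, Cnnm3, Trim28, a transcriptional corepressor, AW549877 and Uvssa, a protein of transcription-coupled DNA repair. Their root mean square distances from the Dgat2 profile ran from 0.13 for Stard5 to 0.16 for Uvssa log2 units. In lsPERK liver their log2 changes under tunicamycin ran from -1.02 for Stard5 to -0.56 for Cnnm3, and in WT liver from 0.00 for AW549877 to 0.25 for Trim28. They were chosen for this likeness, so their values are a description.

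**Figure D3:**
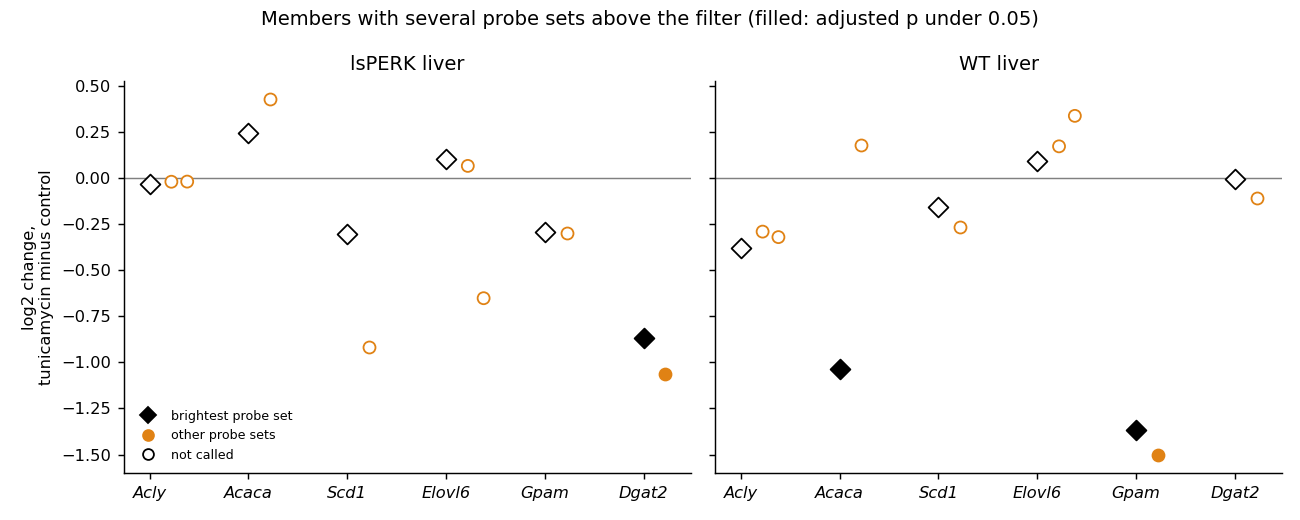
Log2 change under tunicamycin (tunicamycin minus control) in lsPERK and WT liver for the 6 enzymes with more than 1 probe set above the filter, with a diamond for the brightest probe set, circles for the others and filled symbols for a limma adjusted p under 0.05. Both probe sets of Dgat2 are filled in lsPERK and both of Gpam in WT liver, while the dim Acaca probe set is open at 0.18 in WT liver.

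The 10 genes had 23 probe sets, of which 18 passed the filter on low values, and 8 of those were further probe sets of 6 genes. Besides Gpam and Dgat2, the brighter and dimmer probe sets of Acly lay side by side, with WT changes of -0.38, -0.29 and -0.32. For Acaca, Scd1 and Elovl6 they lay further apart. The other Acaca probe set was dim, above the filter's level on 9 of 14 arrays, with a log2 change of 0.18 in WT liver (limma adjusted p = 0.756). Under tunicamycin that probe set was 0.63 higher in lsPERK than in WT liver (adjusted p = 0.226). Averaging both Acaca probe sets gave a WT change of -0.43, which was not called. In lsPERK liver the dimmer Scd1 probe set changed by -0.91 and the brightest by -0.31. The dimmest Elovl6 probe set had an lsPERK change of -0.65 (adjusted p = 0.181) and a difference of responses of -0.99 (adjusted p = 0.136), where the brightest had 0.10 and 0.02. No probe set of Scd1 or Elovl6 was called in any of the 5 comparisons. Fasn and Agpat2 had a single probe set each.

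Ordered by group mean, 4 enzymes (Acaca, Acacb, Fasn and Gpam) shared one shape: WT tunicamycin livers were last and apart from the group before them, and the 3 other groups overlapped with their neighbours. That shape was found in 9.43% of all genes, and WT tunicamycin livers were last and apart, with or without further gaps, in 5 of the 10 enzymes and in 13.5% of all genes. Agpat2 had WT control and lsPERK control livers first without a gap between them, then lsPERK tunicamycin and then WT tunicamycin livers, each apart from the group before. Dgat2 had lsPERK tunicamycin livers last and apart, with the 3 other groups overlapping, a shape found in 1.41% of all genes. For Acly, Scd1, Elovl6 and Dgat1 no neighbours in the order were apart, as in 58% of all genes. These gaps come from the same arrays as the calls above and are a description.

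Beyond the 10 enzymes, 62 genes that control, supply or extend the pathway were listed, of which 55 could be tested. In lsPERK liver 5 were higher and 9 lower under tunicamycin, and in WT liver 7 were higher and 26 lower. Over all genes 8.42% were higher and 7.27% lower in lsPERK liver, and 20.7% higher and 26% lower in WT liver, and the counts of the subgroups below stand beside these same shares. The median log2 change of the list was -0.17 in lsPERK and -0.45 in WT liver, against -0.02 and -0.13 over all genes. Under tunicamycin 18 were higher and 4 lower in lsPERK than in WT liver, where 18.5% of all genes were higher and 16.8% lower. Under control conditions 0 of 55 were called. For 9 genes the lsPERK response was higher than the WT response and for 3 it was lower, beside 10.2% and 9.67% of all genes. The WT balance rests on the scaling of the arrays: on the values as deposited 9 of 56 were higher and 7 lower in WT liver, with a median of -0.02, and with arrays centred on their medians 8 of 55 were higher and 23 lower. With the deposited values 6 were higher and 4 lower in lsPERK than in WT liver under tunicamycin, where 26.5% of the 2662 genes called were higher. The responses differed upward for 3 and downward for 4, where 6.79% of the 1901 genes called were higher. This look at the scaling was chosen after seeing the data, and no gene of the list named here changed sign where it was called.

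**Figure D4:**
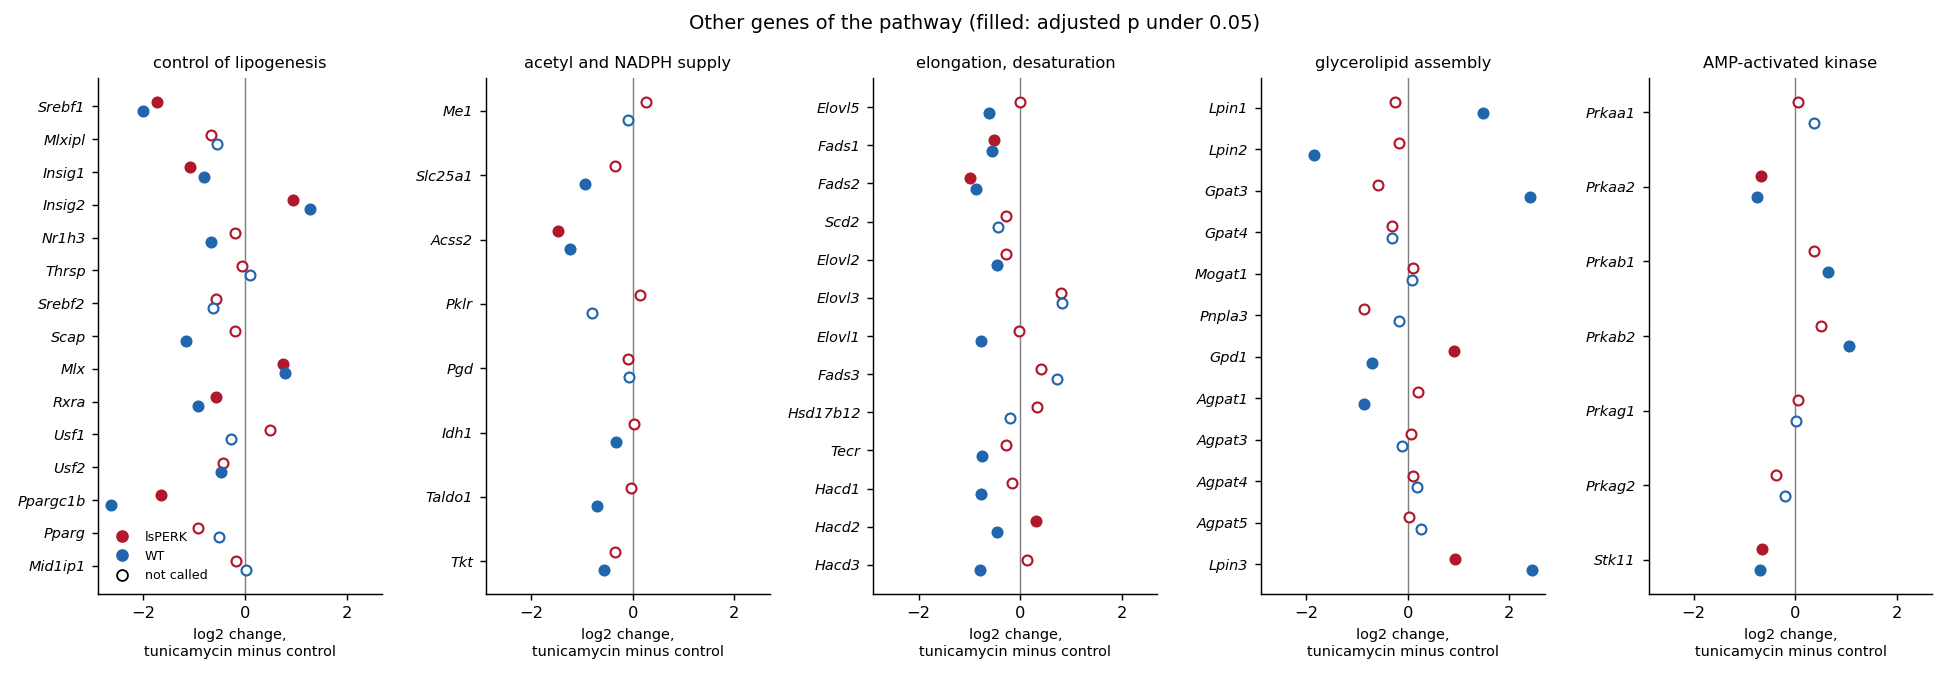
Log2 change under tunicamycin (tunicamycin minus control) in lsPERK and WT liver for the 55 other genes tested, in 5 panels by role, with filled symbols for a limma adjusted p under 0.05. Srebf1 lies to the left in both genotypes (-1.73 in lsPERK, -2.001 in WT), while in WT liver Lpin1 and Gpat3 lie to the right and Lpin2 to the left.

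Among the controllers of lipogenesis, 2 of 15 were higher and 4 lower in lsPERK liver, and 2 higher and 7 lower in WT liver. Srebf1, which encodes the sterol-regulated activator of lipogenic genes, read 839 to 1930.1 in lsPERK tunicamycin livers, against 3652 to 4515 in lsPERK controls, and 564 to 1042 in WT tunicamycin livers, against 2177 to 4334 in WT controls. It fell in lsPERK (log2 -1.73, limma adjusted p = 0.00109) and in WT liver (-2.001, adjusted p = 7.12e-05), and the difference of responses was 0.27 (adjusted p = 0.707). Insig1, which retains SREBP in the endoplasmic reticulum, fell by 1.08 in lsPERK and by 0.81 in WT liver on the log2 scale, and its relative Insig2 rose by 0.94 and by 1.27. Nr1h3, the liver X receptor α, had a change of -0.20 in lsPERK liver (adjusted p = 0.298) and fell in WT liver (-0.68, adjusted p = 0.000322), with a difference of 0.48 (adjusted p = 0.0582). Mlxipl, which encodes the carbohydrate-responsive factor ChREBP, and Thrsp passed neither response. The responses differed for 1 of the 15, Scap, named after its values were seen. Scap had -0.20 in lsPERK liver (adjusted p = 0.471) and fell in WT liver (-1.16, adjusted p = 4.82e-05). Its difference of responses was 0.96 (adjusted p = 0.00935), against 0.48 (adjusted p = 0.355) as deposited. As deposited, the WT count was 2 higher and 3 lower, and Insig1 (-0.37) and Nr1h3 (-0.12) were no longer called. With median centring the WT change of Insig1 was -0.66 (adjusted p = 0.0603).

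Genes that supply acetyl groups and NADPH gave 0 higher and 1 lower of 8 in lsPERK liver, and 0 higher and 5 lower in WT liver. Acss2, which makes acetyl-CoA from acetate, fell by 1.46 in lsPERK (limma adjusted p = 0.0137) and by 1.24 in WT liver on the log2 scale (adjusted p = 0.0115). The citrate carrier Slc25a1 had -0.35 in lsPERK liver (adjusted p = 0.144) and fell in WT liver (-0.94, adjusted p = 0.000163). Idh1, a source of cytosolic NADPH, had 0.03 in lsPERK liver and fell in WT liver (-0.32, adjusted p = 0.00711). Me1, Pgd and Pklr passed neither response. None of the 8 (0 of 8) was called in WT liver on the values as deposited. The responses differed for 1 of the 8, Taldo1 of the pentose phosphate pathway, named after its values were seen (0.67, adjusted p = 0.00509, against 0.20 and an adjusted p of 0.557 as deposited).

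Elongation and desaturation had 1 gene higher and 2 lower of 13 in lsPERK liver, and 0 higher and 9 lower in WT liver, where 26% of all genes were lower. The desaturases Fads1 and Fads2, which make polyunsaturated chains, fell in both: by 0.52 and 1.00 in lsPERK and by 0.55 and 0.87 in WT liver. The elongase Elovl5 had -0.01 in lsPERK liver and fell in WT liver (-0.62, limma adjusted p = 1.31e-05), with a difference of responses of 0.61 (adjusted p = 0.00148). Elovl2 fell by 0.45 in WT liver (adjusted p = 0.0358). Scd2 and Elovl3 passed neither response. The 1 gene higher in lsPERK liver was Hacd2, a dehydratase of the elongation cycle named after its values were seen, at 0.32 in lsPERK (adjusted p = 0.0124) and -0.45 in WT liver (adjusted p = 0.000283). The responses differed for 4 of 13, all higher in lsPERK liver. As deposited, 3 of 14 were lower in WT liver and the response differed for 1. The calls of Hacd2 were then lost, as were the WT changes of Fads2 (-0.48) and Elovl2 (-0.23) and those of Fads1 in lsPERK (-0.51) and WT liver (-0.30). Elovl5 remained lower in WT liver (-0.46, adjusted p = 0.012), with a difference of responses of 0.43 (adjusted p = 0.135). With median centring the lsPERK calls of Fads1 (-0.39) and Fads2 (-0.70) were lost.

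The glycerolipid list held calls in both directions. It had 2 genes higher and 0 lower of 12 in lsPERK liver, and 3 higher and 3 lower in WT liver. Lpin1, a phosphatidate phosphatase that makes diacylglycerol, read 1581 to 2705 in lsPERK tunicamycin livers, against 1621 to 3905 in lsPERK controls, and 7540.3 to 11590 in WT tunicamycin livers, against 1947 to 5426 in WT controls. Its log2 change was -0.24 in lsPERK liver (limma adjusted p = 0.702), it rose in WT liver (1.48, adjusted p = 0.00236), and the responses differed by -1.72 (adjusted p = 0.0209). Its relative Lpin2 went the other way, with -0.17 in lsPERK liver, a fall in WT liver (-1.85, adjusted p = 1.91e-05) and a difference of 1.67 (adjusted p = 0.00322). Gpat3, an acyltransferase of the endoplasmic reticulum for the same first step as Gpam, read 554 to 1058 in lsPERK tunicamycin livers, against 893 to 1181 in lsPERK controls, and 2405 to 4256 in WT tunicamycin livers, against 213 to 965 in WT controls. Its log2 change was -0.58 in lsPERK liver and it rose in WT liver (2.40, adjusted p = 0.000265), with a difference of -2.98 (adjusted p = 0.00298). Gpat4, Mogat1 and Pnpla3 passed neither response. Each WT change and each difference of responses of Lpin1, Lpin2 and Gpat3 was also called on the values as deposited.

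Further glycerolipid genes were named after their values were seen. Gpd1, which makes glycerol 3-phosphate, rose in lsPERK liver (0.91, limma adjusted p = 0.00384) and fell in WT liver (-0.71, adjusted p = 0.00532), and the responses differed by 1.62 (adjusted p = 0.000874). Agpat1, a relative of Agpat2, had 0.20 in lsPERK liver and fell in WT liver (-0.87, adjusted p = 0.00203), with a difference of 1.07 (adjusted p = 0.014). As deposited, the WT changes of Gpd1 (-0.18) and Agpat1 (-0.44) were not called, and the difference of responses was 1.09 for Gpd1 (adjusted p = 0.0257) and 0.55 for Agpat1 (adjusted p = 0.41). Lpin3 read 52.9 to 76.3 in lsPERK tunicamycin livers, against 30.9 to 37.2 in lsPERK controls, and 194 to 349 in WT tunicamycin livers, against 39.9 to 46.7 in WT controls. It was called higher in lsPERK (adjusted p = 0.0112) and in WT liver (adjusted p = 1.1e-06), but its lsPERK controls lay below the filter's level of 41.5, so no fold is given. Its lsPERK call was lost on the values as deposited (adjusted p = 0.0969).

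AMP-activated kinase inhibits the carboxylases by phosphorylation, and its list held 6 subunit genes and Stk11, which encodes the upstream kinase LKB1. Of these 7 genes 0 were higher and 2 lower in lsPERK liver, and 2 were higher and 2 lower in WT liver. The catalytic subunit gene Prkaa2 fell by 0.68 in lsPERK (limma adjusted p = 0.0328) and by 0.75 in WT liver on the log2 scale (adjusted p = 0.00664). Stk11, named after its values were seen, fell by 0.66 in lsPERK (adjusted p = 0.00164) and by 0.69 in WT liver (adjusted p = 0.000253). The regulatory subunit genes Prkab1 and Prkab2 had 0.38 and 0.50 in lsPERK liver, where neither passed, and rose in WT liver by 0.65 and 1.05. Prkaa1, Prkag1 and Prkag2 passed neither response, and no difference of responses was called among the 7. As deposited, 0 were called in lsPERK liver, 3 were higher and 0 lower in WT liver, and the responses differed for Prkab1 (-0.86, adjusted p = 0.0342). With median centring Prkaa2 was called in neither genotype (-0.56 in lsPERK, -0.51 in WT liver).

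Other cell types of liver were read through their markers beside these enzymes. Of 7 adipocyte markers 5 were measured and 3 passed the filter, and they summed to 399.9 to 561 in lsPERK tunicamycin, 255 to 481 in lsPERK control, 453 to 854 in WT tunicamycin and 322 to 569 in WT control livers. Adipoq, which defines fat cells, read between 1.64 and 78.8 over the 14 arrays, and Lep between 0.768 and 8.13. The log2 change of Adipoq was 0.55 in lsPERK (limma adjusted p = 0.812) and -0.60 in WT liver (adjusted p = 0.695). Fabp4, the brightest of the 5, read between 210 and 556. Its log2 change was 0.64 in lsPERK (adjusted p = 0.0689) and 0.57 in WT liver (adjusted p = 0.0512). Cidec, a lipid droplet protein that liver also makes, had 0.17 in lsPERK liver (limma adjusted p = 0.876) and rose in WT liver (2.09, adjusted p = 0.00338). Markers of Kupffer cells, the macrophages of liver, summed to 4429 to 7373 in lsPERK tunicamycin, 4282 to 13643 in lsPERK control, 2855 to 8676 in WT tunicamycin and 5046 to 14631 in WT control livers. Of the 6, Cd5l was called lower in WT liver (-1.10, adjusted p = 0.0202).

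Endothelial markers, 5 of 5 above the filter, summed to 3538 to 5103 in lsPERK tunicamycin, 4872 to 5937 in lsPERK control, 3233 to 5107 in WT tunicamycin and 3801 to 5916 in WT control livers. Of these, Stab2 (-0.70, limma adjusted p = 0.0167) and Kdr (-0.65, adjusted p = 0.00603) were lower in WT liver. Stellate cell and fibroblast markers, 4 of 5 above the filter, summed to 7754 to 9932 in lsPERK tunicamycin, 7737 to 8801 in lsPERK control, 6049 to 8325 in WT tunicamycin and 7416 to 10198 in WT control livers, and Reln was lower in WT liver (-0.48, adjusted p = 0.00956). Cholangiocyte markers, 3 of 4 above the filter, summed to 183 to 295 in lsPERK tunicamycin, 121 to 148 in lsPERK control, 160 to 222 in WT tunicamycin and 138 to 234 in WT control livers, and Sox9 was higher in lsPERK liver (1.44, adjusted p = 0.0237). Neutrophil and lymphocyte markers had no call in either response, and of the hepatocyte markers Apob was lower in WT liver (-0.19, adjusted p = 0.00417). The part of these cell types in the results was not tested.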

How the data were processed

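Total liver RNA of 14 samples was labelled by the 3′ in vitro transcription protocol and hybridised to 1 Affymetrix array each, per the labels' protocols. The authors deposited 1 linear intensity per probe set and array; MAS5 and GCOS are named in the submitters' processing notes, and the sources used here give neither their versions nor the scaling target. The median intensity of an array as deposited lay between 34.4 and 53.4, a gap of 0.63 on the log2 scale. Because that gap exceeded 0.5, the log2 intensities were quantile normalised after 64 control probe sets of 45101 had been removed. Levels in the text are normalised intensities, and the Xist signal and 3′ to 5′ ratio come from deposited ones.

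Probe sets were named from the platform annotation (34945 with 1 gene, 932 with several, 9160 with none). The filter required values over the pooled median on 3 or more arrays (log2 5.37, intensity 41.5), which left 21808 with 1 gene, and each of 12085 genes was read from its kept probe set of highest mean. All 10 members passed. One model of group means (limma 3.58.1, R 4.3.3, lmFit and eBayes with trend, 10 residual degrees of freedom) gave 5 two-sided contrasts, with Benjamini-Hochberg adjustment over all 12085 genes and a threshold of 0.05. Confidence intervals of 95% are not adjusted. The fit was tested on simulated data. Other probe sets were adjusted over all 21808. Figures were drawn with Python 3.11.15 and matplotlib 3.10.9.

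Named genes were the 10 members and the first 6 measured genes of each pathway subgroup in list order. The 5 genes nearest to the member of largest F, Eif2ak3 and Xist were named too. Other pathway genes are marked in the text as named after their values were seen. Besides Adipoq, Lep and Fabp4, single cell type markers were named where a response was called, and so after their values were seen. Members, lists and markers were chosen with earlier results of these data known. The alternatives covered scaling, filter, floor, variance model, probe set rule, covariates, replicate block and each array left out. The replicate numbers carry no statement of a shared animal, litter or day, and the fit has no block. The number of arrays limits the precision.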

Additional observations from a re-analysis of the deposited data

Results flagged for a closer look

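In WT tunicamycin livers Acacb read 50.4 in replicate 2, while the other 3 samples read 78.2 to 84.4. The gap to the nearest sample made up 0.853 of the group's range, above the critical value of 0.829 for 4 samples. This was 1 of 20 sets of 4 samples examined (10 enzymes in the 2 tunicamycin groups), and chance alone marks about 1 in 20. That sample was the one Xist-high array of its group. Without it the 5 enzymes lower in WT liver were still called.

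The tunicamycin response differed between the genotypes by the interaction test of limma for 4 enzymes. The lsPERK minus WT difference was 1.28 for Acaca, 1.63 for Fasn, 1.08 for Gpam and -0.86 for Dgat2 on the log2 scale. These rest on the comparisons described above and share their arrays.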

How the results depend on the processing

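No value that was called for an enzyme changed sign under any alternative. Among values that were not called, 22 changed sign under other settings of the processing, 31 with 1 array left out and 15 on arrays of 1 Xist status, all between -0.66 and 0.42. The number of enzymes called in the lsPERK response was 2, and 1 on the values as deposited, with median centring, without the filter, without a variance trend, with the replicate number as a block, and on Xist-high arrays alone. In the WT response it was 5, and 3 on the values as deposited. For the difference of responses it was 4, against 1 on the values as deposited. On Xist-high arrays alone each WT group held 1 array, so for the 4 called differences only sizes are given. They were 1.65 for Acaca, 1.13 for Fasn, 1.01 for Gpam and -0.70 for Dgat2. Leaving out each array in turn gave 1 to 3 for the lsPERK response, 5 to 6 for the WT response, 6 to 7 between the genotypes under tunicamycin, 0 to 0 between the controls and 4 to 5 for the difference of responses.

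On the values as deposited the all-gene median moved to 0.30 in the WT response (main value -0.13), to -0.11 between the genotypes under tunicamycin, to 0.30 between the controls and to -0.42 in the difference of responses. Of the genes called, 83.7% were then higher in the WT response (44.2% after normalisation), 26.5% between the genotypes under tunicamycin (52.4%) and 6.79% in the difference of responses (51.3%). With median centring these shares were 60.7%, 37.3% and 35.6%, and 71.7% in the lsPERK response (53.7%). The lsPERK response had 695 called genes as deposited and 1897 after normalisation. Calls lost as deposited were the WT changes of Acaca (-0.47) and Fasn (-0.98), both Agpat2 calls that involve lsPERK tunicamycin livers (-0.70 and 0.56), and the differences of responses of Acaca (0.73), Fasn (1.16) and Gpam (0.67). Averaging probe sets lost the WT call of Acaca (-0.43), and median centring lost the difference of responses of Fasn (1.57, adjusted p = 0.0502). The arrays of 1 Xist status were an alternative chosen after seeing the data, and some groups then held 1 array, assumed to vary like the others. The cause of these moves was not tested.

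The replicate numbers were checked over 19 same-number pairs, whose deviations from the group means correlated from -0.37 to 0.42 with a median of 0.24. Of these, 13 of 19 were over 0.1, and 4 of 14 arrays correlated best with their own number. Not every pair was over 0.1 and no label ties the numbers to an animal or day, so the numbers were not taken to pair the samples. With the replicate block 1 enzyme was called for the lsPERK response, 6 for the WT response, 7 between the genotypes under tunicamycin and 4 in the difference of responses. The block lost Agpat2 in lsPERK liver (-0.65) and added Dgat1 in the WT response (-0.34) and between the genotypes under tunicamycin (0.27).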
